A study of Mus musculus with 20 samples.

Results

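The 10 genes described here are best known from neurons: the small GTPase genes Rab3a, Rab3b and Rab3d, the synaptic vesicle gene Syn1, the membrane fusion genes Snap25, Vamp2 and Stx1a, and the neurite genes Dpysl2, Dpysl3 and Map1b. They were taken by gene symbol, and each of the 10 matched 1 row of the 39179 gene rows in the authors' deposited RPKM table (reads per kilobase of gene length and per 1000000 reads). The study sequenced the RNA of 20 single podocytes from 1 wild-type male mouse, 8 weeks old, whose strain the design text gives as C57BL/6 and the sample labels as C56BL/6. Glomeruli were pulled out of the kidney by magnetic beads, enzymes freed their cells, and a Fluidigm C1, an instrument that isolates and lyses each cell in its own chamber, turned the RNA into cDNA libraries. All 20 cells form 1 group with no treatment and no control, so there is nothing to test, and an SD here is the spread between cells of a single animal. Cells are numbered 1 to 20 in the order of their sample records.

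Podocytes wrap the capillaries of the kidney filter with branched processes that hold microtubules in their main stems and actin in their feet, and they have been described to carry vesicles that resemble those of synapses. In neurons, a Rab3 GTPase sits on the vesicle, synapsin ties vesicles into clusters, and the vesicle SNARE protein encoded by Vamp2 zips together with the plasma membrane SNARE proteins encoded by Stx1a and Snap25 to fuse the vesicle with the membrane. The proteins encoded by Dpysl2, Dpysl3 and Map1b bind tubulin or microtubules and act in the outgrowth of axons and dendrites.

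Read totals recovered from the values ran from 4205562 to 10448491 per cell, with a median of 6753753. Of 16 podocyte markers, each cell held 15 or 16 at 1 RPKM or more, the level at which a gene is called found here. Cells 5, 6, 10, 11 and 14 also held 7 to 11 of 14 mesangial and mural markers, and cell 8 held 12 of 16 endothelial markers. The other 14 cells held at most 1 mesangial and mural marker and at most 2 endothelial markers. Whether each of these 6 libraries holds a single podocyte was not tested, so their values may not be those of podocytes alone, and results are also given without them. The authors' table was also divided at its middle after the values had been seen, because its first 10 and last 10 cell columns differed; no label names this division. The first 10 columns hold cells 3, 4, 5, 7, 8, 9, 12, 16, 17 and 19.

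Rab3b and Dpysl2 were found in all 20 cells, at levels among the highest of all protein-coding genes, while Syn1 and Dpysl3 were found in none. The other 6 genes were found in 2 to 12 cells each. Of 21226 protein-coding genes, 1.11% were found in every cell, 53.5% in no cell and 45.4% in 1 to 19 cells. The 10 genes were proposed with earlier results of these data known, so the 2 of 10 found in every cell carry no weight against that background. A cell held a median of 3.5 of the 10 genes, from 2 in cells 5 and 7 to 6 in cell 14. Of the 200 pairs of a gene and a cell, 91 were at 0, 33 lay above 0 but below 1 RPKM, 15 lay from 1 to below 10, and 61 reached 10 RPKM.

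**Figure D1:**
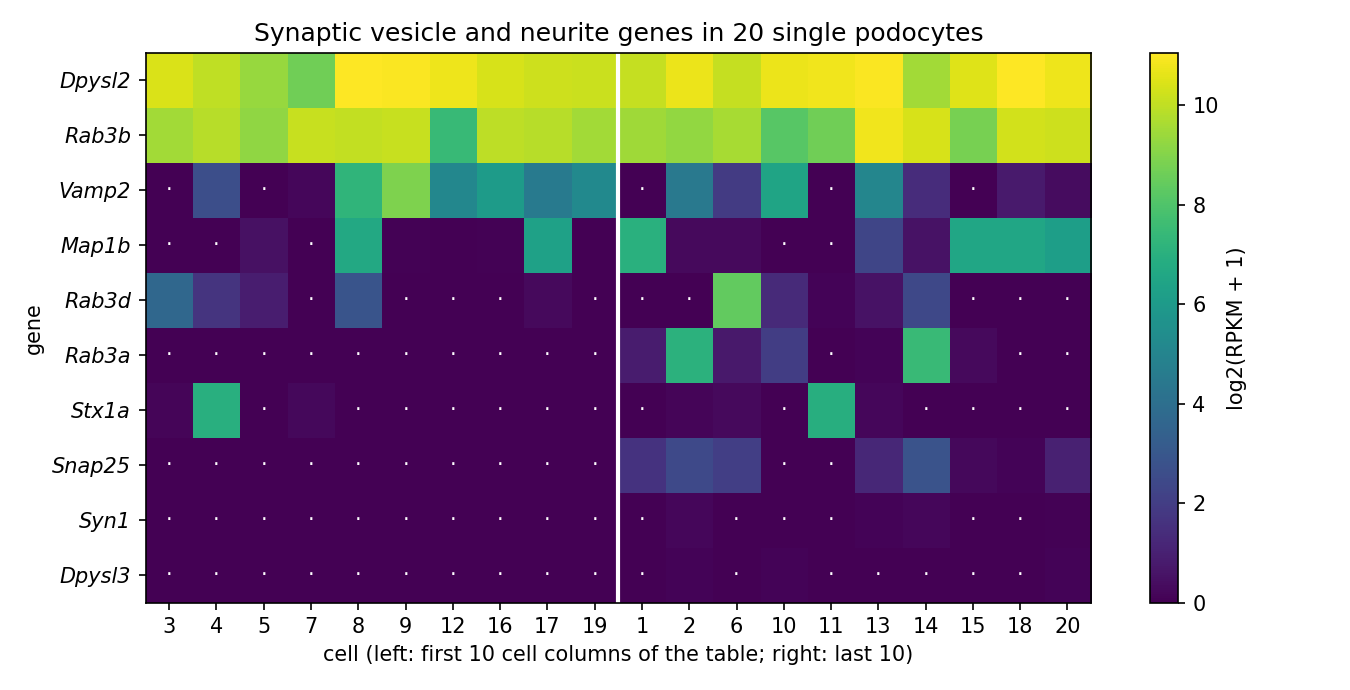
Level of each of the 10 genes (rows, ordered by mean RPKM) in each of the 20 cells (columns), as log2(RPKM + 1) by colour; a dot marks a value of 0 and the white line separates the first 10 from the last 10 cell columns of the deposited table. The rows of Dpysl2 and Rab3b are bright in all 20 cells, and those of Rab3a, Snap25, Syn1 and Dpysl3 have only dots left of the line.

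Among the Rab3 genes, Rab3b was the leading gene in every cell. Rab3b encodes a Rab3 GTPase known from the pituitary and from epithelial cells, and lies on chromosome 4 at 108879063 to 108943324, plus strand (GRCm38, GENCODE M21 annotation). Its level ran from 172 RPKM in cell 12 through a median of 850 to 1816 RPKM in cell 13, a 10.6-fold range. The mean was 857 ± 395 RPKM (SD, n = 20 cells), and 2046 to 25123 reads stood behind each value. Cells 12, 10, 11 and 15 were the lowest, at 172, 286, 404 and 442 RPKM, and the next was cell 5 at 601 RPKM. By median level Rab3b ranked 57 among protein-coding genes, and by coefficient of variation, 46.2%, it ranked 25 from the lowest among the 235 protein-coding genes found in every cell. Without the 6 cells with mesangial or endothelial markers the median was 924 RPKM. Of the 50-base windows of Rab3b transcripts, 7.70% also lie in the antisense gene 8030443G20Rik, which was at 0 in all 20 cells.

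Rab3d, a Rab3 GTPase best known from secretory granules of exocrine glands, lies on chromosome 9 at 21907491 to 21918192, minus strand. It was found in 6 cells, at 334 RPKM in cell 6, 12.03 in cell 3, 6.35 in cell 8, 4.34 in cell 14, 2.14 in cell 4 and 1.49 in cell 10. Cell 6 stood alone, with 4048 reads against at most 155 in any other cell. In 10 cells there was no read. Of the 6 cells in which Rab3d was found, 4 were among those with mesangial or endothelial markers, including cell 6, and without them it was found in 2 of 14 cells. The part of these other-type markers in the result was not tested.

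Rab3a, the main Rab3 GTPase of brain synaptic vesicles, lies on chromosome 8 at 70754679 to 70758677, plus strand. It was found in 3 cells, at 177 RPKM in cell 14, 134 in cell 2 and 2.996 in cell 10. The first and second of these values rest on 1252 and 909 reads and the third on 21 reads. Cells 1, 6, 13 and 15 held 0.0924 to 0.813 RPKM from 1 to 6 reads each, and the other 13 cells were at 0. Without the cells with mesangial or endothelial markers Rab3a was found in 1 of 14 cells, cell 2. Rab3b thus stood above Rab3a and above Rab3d in 20 of 20 cells, also in cell 14, where Rab3b was at 1347 RPKM, and in cell 6, where it was at 780 RPKM.

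The promoters of the 3 Rab3 genes are shown to set the gene found in every cell beside its relatives, which were found in few. Each sequence runs from 250 bases before to 50 bases after the annotated start (RefSeq, GRCm38.p6), on the strand of the gene, 5′ to 3′. Capitals mark the GC box GGGCGG, read on either strand, and the TATA box motif TATAAA, read on either strand. Rab3b, at chr4:108878820-108879119, plus strand, has 4 GC boxes, the first and second of which overlap by 1 base, and 1 TATAAA. This TATAAA begins at position -120 from the annotated start, and whether it acts as a TATA box was not tested. Rab3a, whose first of 2 RefSeq entries is shown, has 2 GC boxes and no TATAAA, at chr8:70754453-70754752, plus strand. The second Rab3a entry, at chr8:70754852-70755151, has no GC box and no TATAAA. Rab3d has 3 GC boxes and no TATAAA, at chr9:21918134-21918433, minus strand.
Rab3b: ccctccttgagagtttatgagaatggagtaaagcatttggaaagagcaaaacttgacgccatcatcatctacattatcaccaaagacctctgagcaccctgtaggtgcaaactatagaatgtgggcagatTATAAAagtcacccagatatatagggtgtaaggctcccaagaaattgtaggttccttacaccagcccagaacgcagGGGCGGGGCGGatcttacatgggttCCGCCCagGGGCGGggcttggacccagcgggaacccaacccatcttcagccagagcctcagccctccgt
Rab3a: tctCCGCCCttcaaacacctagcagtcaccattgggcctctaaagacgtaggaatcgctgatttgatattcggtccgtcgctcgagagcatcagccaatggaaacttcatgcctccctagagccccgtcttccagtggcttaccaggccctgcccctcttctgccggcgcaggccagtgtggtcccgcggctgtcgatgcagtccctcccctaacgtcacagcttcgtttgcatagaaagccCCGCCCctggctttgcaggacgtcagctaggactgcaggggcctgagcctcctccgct
Rab3d: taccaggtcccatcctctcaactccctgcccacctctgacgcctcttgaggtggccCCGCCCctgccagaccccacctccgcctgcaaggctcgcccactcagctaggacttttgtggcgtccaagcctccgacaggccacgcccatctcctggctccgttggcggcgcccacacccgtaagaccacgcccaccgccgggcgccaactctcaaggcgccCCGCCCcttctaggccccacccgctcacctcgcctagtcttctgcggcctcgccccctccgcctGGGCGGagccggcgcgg
A GC box stood in 35.7% and a TATAAA in 13.6% of 32851 RefSeq promoters of the same 300 bases. The G and C content was 51.7% for Rab3b, 60% for the Rab3a entry shown, 65.3% for the second Rab3a entry and 71% for Rab3d, against a median of 52.7% over all promoters. These letter matches are a description and say nothing of binding.

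Around the Rab3 genes, the list of 6 Rab3 and Rab27 GTPases had 1 gene found in every cell (Rab3b), 4 found in some cells and 1, Rab3c, in none. Rab27a and Rab27b, GTPases of lysosome-related and secretory granules, were found in 1 cell each, at 3.70 RPKM in cell 19 and 3.93 RPKM in cell 17. Of 10 genes that load, unload or switch off Rab3, 7 were found in some cells and 3 in none. Gdi2, which extracts Rab proteins from membranes, was found in 13 cells, at a median level of 46.0 RPKM. Rab3gap1, the catalytic subunit of the complex that switches Rab3 off, was found in 9 cells, and Madd, an exchange factor that activates Rab3, in none, at 0.811 RPKM or less. Of 18 effectors of Rab3 and Rab27 and relatives of these effectors, 4 were found in some cells and 14 in none. Unc13d, known as a Rab27 effector that primes granules in blood cells, was found in 19 cells, at a median level of 8.59 RPKM. Rph3a and the family of Rims1, Rims2, Rims3 and Rims4, which are known from synapses, were found in no cell, at 0.0775 RPKM or less. Of the relatives of Unc13d in this list, Unc13a and Unc13c were found in no cell. Unc13b was found in 3 cells, with a maximum of 18.8 RPKM in cell 17.

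Syn1 encodes synapsin I, the phosphoprotein that coats synaptic vesicles and tethers them to one another and to actin. The gene lies on chromosome X at 20860511 to 20921004, minus strand. It was found in no cell: 4 cells held reads, 3 in cell 2, 3 in cell 14, 2 in cell 13 and 1 in cell 20, and the highest level was 0.158 RPKM. In the other 16 cells there was no read, which allows a level of up to 0.0888 to 0.221 RPKM over all 20 depths (the level of 3 reads, counting error only). Its promoter is shown as the counterpart to that of Rab3b, from a gene at or near 0 in every cell. It lies at chrX:20920869-20921168, minus strand (RefSeq, GRCm38.p6), 250 bases before to 50 after the start, 5′ to 3′. Capitals mark TCAGCACC, the left part of the element bound by the neuronal gene repressor REST, and TGACGTCA, the cyclic AMP response element.
Syn1: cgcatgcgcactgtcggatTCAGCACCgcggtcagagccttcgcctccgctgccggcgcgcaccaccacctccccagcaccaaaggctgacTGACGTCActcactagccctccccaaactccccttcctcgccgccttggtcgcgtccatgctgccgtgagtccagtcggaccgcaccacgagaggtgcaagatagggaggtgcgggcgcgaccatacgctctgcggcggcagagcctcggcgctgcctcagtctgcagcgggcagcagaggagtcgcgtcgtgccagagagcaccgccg
TCAGCACC, read on either strand, stood in 1.65% and TGACGTCA in 1.79% of the 32851 promoters. The promoter of Syn1 held no GC box and no TATAAA, and neither of its motifs stood in the RefSeq promoters of Rab3a, Rab3b, Rab3d, Stx1a or Map1b. Rest, which encodes that repressor, was found in 14 cells, its median level being 4.12 RPKM. Nothing about the binding of a factor follows from these letters.

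Of 21 measured genes for synaptic vesicle membrane proteins, Syn1 included, 8 were found in some cells and 13 in none. The highest median belonged to Sypl, the synaptophysin relative known from non-neuronal vesicles, which was found in 15 cells at a median level of 99.5 RPKM. Syp, the synaptophysin of synaptic vesicles, was found in 1 cell, at 53.2 RPKM in cell 5. Syn2 was found in no cell, and Syn3 in 2 cells with a maximum of 114 RPKM in cell 19. Of 17 synaptotagmins, the calcium sensors of vesicle fusion and their relatives, 5 were found in some cells and 12 in none. Syt1, the sensor of fast release, reached 0.544 RPKM, and Syt11 had reads in all 20 cells but reached 1 RPKM in only 7, with a maximum of 4.88 RPKM.

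The 3 neuronal SNARE genes had 3 different patterns over the cells. Vamp2, the vesicle SNARE also called synaptobrevin-2, lies on chromosome 11 at 69088490 to 69092384, plus strand, and was found in 12 cells. It ran from 0 in cells 1, 3, 5, 11 and 15 through a median of 4.05 RPKM to 480 RPKM in cell 9, where 4769 reads stood behind it. Cells 8, 10 and 16 followed at 149, 87.0 and 65.6 RPKM, and 9 cells in all reached 10 RPKM. Without the cells with mesangial or endothelial markers Vamp2 was found in 8 of 14 cells, with a median of 13.3 RPKM. Its median was 27.6 RPKM in the first 10 cell columns of the table and 1.19 RPKM in the last 10, and the values of these groups overlapped, at 0 to 480 and 0 to 87.0 RPKM.

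Stx1a encodes syntaxin 1A, a plasma membrane SNARE, and lies on chromosome 5 at 135023482 to 135051100, plus strand. It was found in 2 cells, at 124 RPKM in cell 4 from 1183 reads and at 119 RPKM in cell 11 from 1221 reads. The other 18 cells held 2 reads or fewer, which is 0.202 RPKM or less. These read counts use a length of 1538 bases, the shortest that gave whole reads, which did not match the mean of the annotated transcripts. Cell 11 is among those with mesangial markers, and without these cells Stx1a was found in 1 of 14.

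Snap25, the other plasma membrane SNARE gene of the synapse, lies on chromosome 2 at 136713453 to 136782428, plus strand. It was low wherever it had reads, at 6.04 RPKM in cell 14, 4.46 in cell 2, 3.08 in cell 6, 2.11 in cell 1, 1.32 in cell 13 and 1.001 in cell 20, the 6 cells in which it was found. Cells 15 and 18 held 0.178 and 0.0728 RPKM from 2 reads and 1 read, and the other 12 cells were at 0. No cell had more than 99 Snap25 reads, so its highest level was far below the 124 RPKM of Stx1a and the 480 RPKM of Vamp2. Of the 50-base windows of Snap25 transcripts, 0.221% also occur in other genes. Without the 6 cells with mesangial or endothelial markers, which include cells 6 and 14, Snap25 was found in 4 of 14 cells. All 3 SNARE genes were found together in no cell. Only cells 4 and 11, the 2 in which Stx1a was found, could have held all 3, and neither had a Snap25 read. With so few cells the lack of a shared cell carries no weight.

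**Figure D2:**
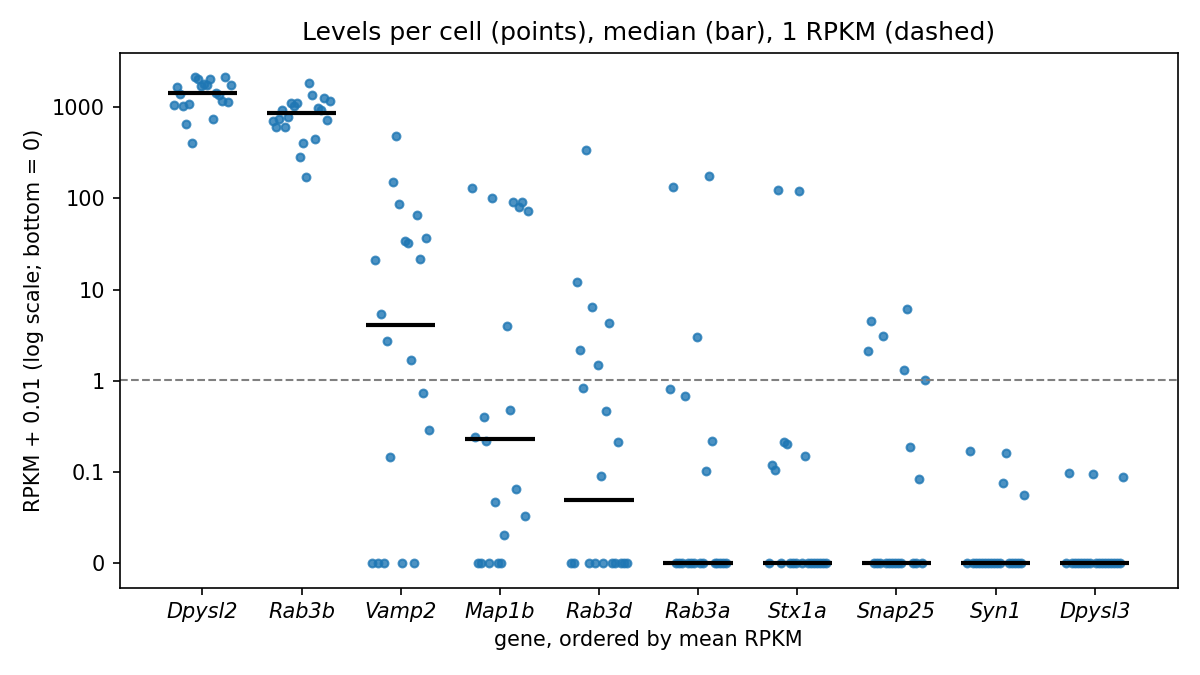
Level of each gene (x axis, ordered by mean RPKM) in each of the 20 cells (points), on a log axis of RPKM + 0.01; the bar is the median and the dashed line marks 1 RPKM. Dpysl2 and Rab3b lie between 172 and 2116 RPKM in all cells, Map1b has 6 cells, Rab3a and Stx1a 2 each and Rab3d 1 cell above 70 RPKM and most others near 0, and Snap25 does not pass 6.04 RPKM.

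Beside the Snap25 values stood reads of neuron markers. Of 16 neuron markers, the 6 cells in which Snap25 was found held reads of 7 to 10, cells 15 and 18 held reads of 2 and 3, and the 12 cells with no Snap25 read held reads of 0 to 2. The Spearman correlation of the Snap25 level with the number of neuron markers with a read was 0.87 over the 20 cells, and that of the Rab3a level was 0.55. The summed level of the 16 markers was low in the 8 cells with a Snap25 read, 0.326 to 5.54 RPKM. It ran from 0 to 0.534 RPKM in the 12 cells with no Snap25 read, apart from 256 RPKM in cell 8, nearly all from Uchl1 at 116 and Stmn2 at 141 RPKM. Cells 14, 2 and 6, the highest in Snap25, held 2, 1 and 1 of the 16 markers at 1 RPKM or more, and no other cell but cell 8 held any. Over all cells Eno2 was found in 2, both in the last 10 columns, with a maximum of 2.48 RPKM in cell 2, Stmn2 was found in 3, 2 of them in the last 10 columns, and Uchl1 was found in cell 8. The other 13 markers were found in no cell, and of these Prph, Dbh and Chat had no read. Of 7 Schwann cell markers a cell held 0 to 3 at 1 RPKM or more; Sox10 and Foxd3 had no read, while S100b had reads in 5 cells, all in the last 10 columns, with a maximum of 0.768 RPKM in cell 14. The cells with a Snap25 read held 15 or 16 of the 16 podocyte markers. The part of these neuron and Schwann cell marker reads in the Snap25 and Rab3a values was not tested.

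The reads of Rab3a, Syn1, Snap25 and Dpysl3 all came from cells in the last 10 columns of the table, while no gene of the 10 had reads in the first 10 alone. Snap25 had reads in 8 of the last 10 cells and Rab3a in 7, against 0 of the first 10 for both. Among all protein-coding genes, 2248 had reads in the last 10 cells alone and 819 in the first 10 alone. Of those with reads in 7 or more cells, 53 had them in the last 10 alone and 6 in the first 10 alone. Read totals were 6211606 to 10448491 in the first 10 cells and 4205562 to 9390931 in the last 10. Of the 16 neuron markers, 8 had reads in the last 10 cells alone and 0 in the first 10 alone, and for synaptic vesicle membrane proteins the counts were 10 and 0. The labels used here do not say which cells shared a capture run or plate, and the part of the table's division in these results was not tested.

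**Figure D3:**
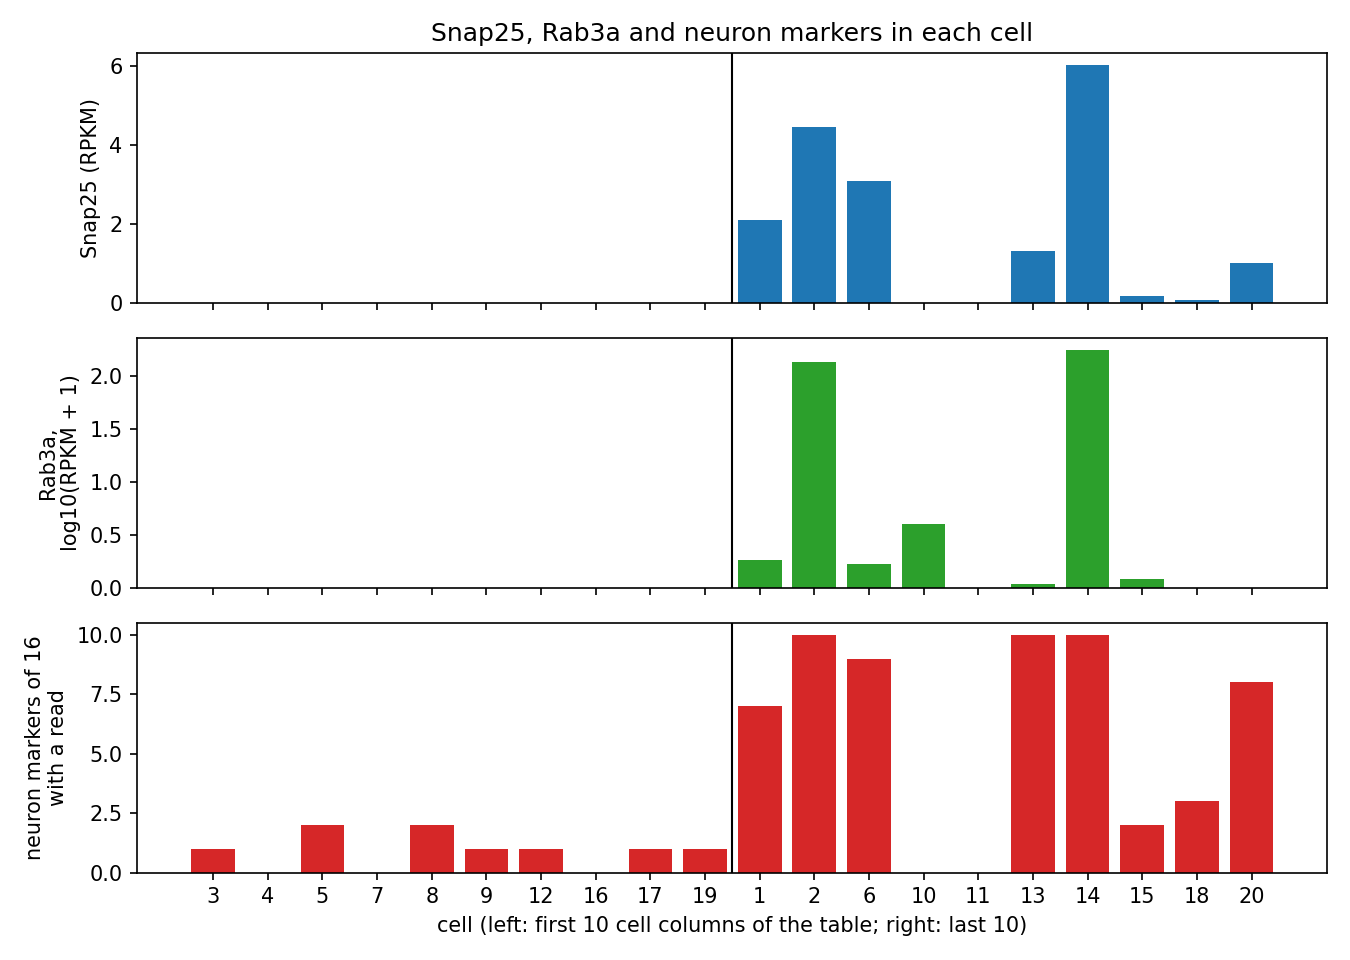
Snap25 in RPKM (top), Rab3a as log10(RPKM + 1) (middle) and the number of 16 neuron markers with a read (bottom) in each cell (x axis), with a line between the first 10 and the last 10 cell columns of the table. Snap25 and Rab3a are at 0 left of the line, where cells hold reads of 0 to 2 neuron markers, and the 6 cells with the highest Snap25 bars hold reads of 7 to 10.

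Several relatives of the SNARE genes that act outside synapses were found in more cells than Vamp2, Snap25 or Stx1a. In the SNAP-25 family, Snap23, the relative used outside neurons, was found in 9 cells, Snap25 in 6, Snap47 in 4 and Snap29 in 2. Among 11 genes of the VAMP family and related SNAREs, 10 were found in some cells and Stxbp6 in none. Vamp8, an endosomal and exocytic SNARE of epithelia, and Sec22b, a SNARE between endoplasmic reticulum and Golgi, were found in 18 cells each, with medians of 179 and 237 RPKM. Vamp2 came after these and after Vamp5 in 14 and Vamp7 in 13 cells, with Vamp3 and Vamp4 in 11 cells each, and Vamp1, the other neuronal VAMP, was found in 1 cell.

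Of 15 syntaxins, 13 were found in some cells and 2, among them Stx3, in none. The Golgi syntaxin Stx5a was found in the most cells, 15, with a median of 5.08 RPKM, while Stx8 and Stx7 of endosomes were found in 10 and 9 cells. Of 15 regulators of SNARE proteins, 1 was found in every cell, 11 in some and 3 in none. Found in all 20 cells was Nsf, the ATPase that takes SNARE complexes apart after fusion, at a median level of 441 RPKM and over a range of 5.48 to 2432 RPKM. Napa, the adaptor of Nsf, was found in 14 cells at a median level of 92.0 RPKM. Stxbp2, a partner of syntaxins in epithelial and blood cells, was found in 12 cells. The complexins Cplx1, Cplx3 and Cplx4 were found in no cell, and Cplx2 in 1.

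**Figure D4:**
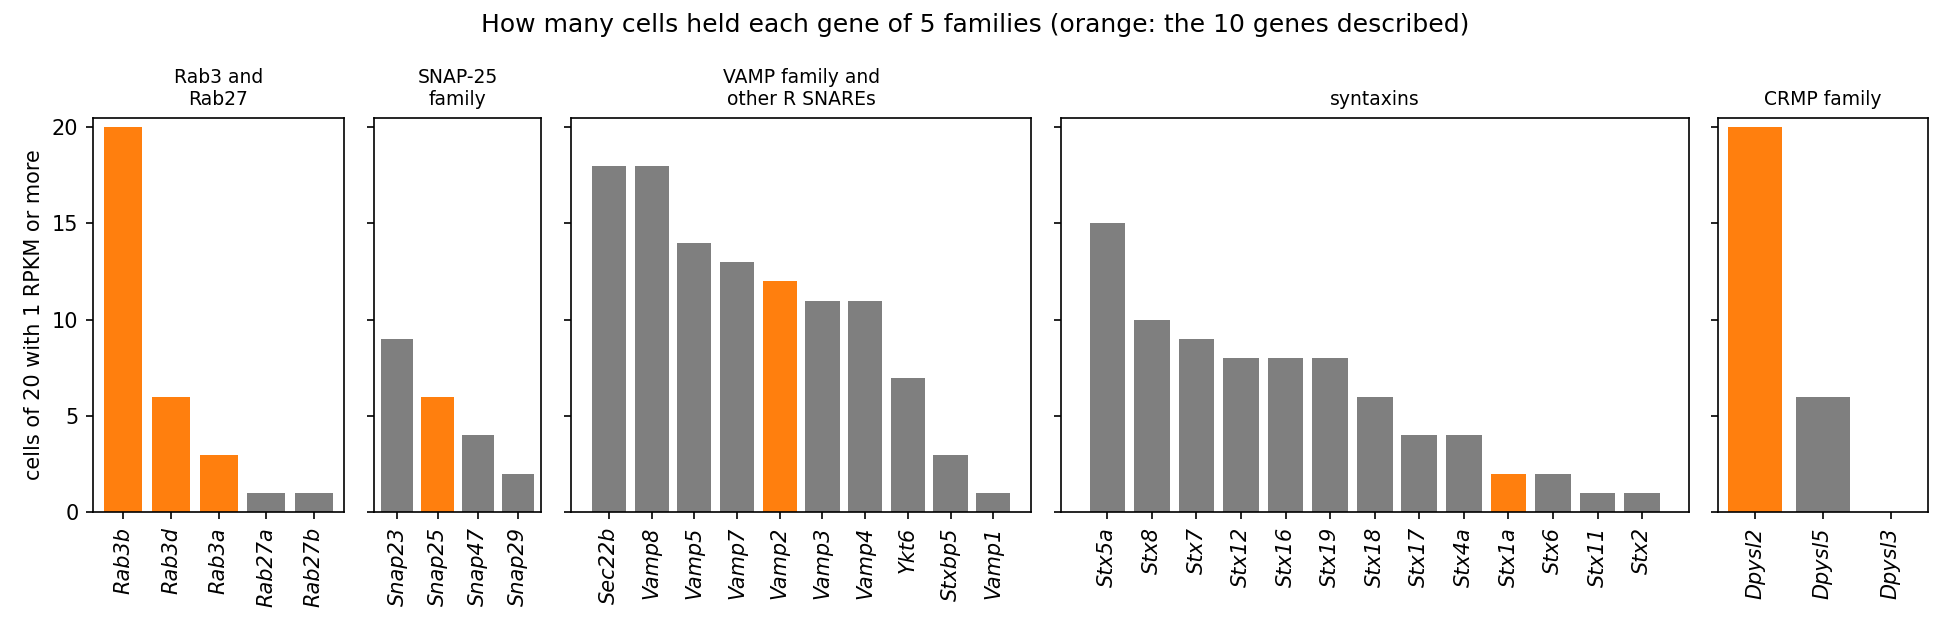
Number of the 20 cells in which each gene of 5 families was found at 1 RPKM or more (bar height), with genes among the 10 described here in orange and other family members in grey; grey genes found in no cell are left out. Rab3b and Dpysl2 reach 20 while their relatives reach 6 at most, and Snap25, Vamp2 and Stx1a are each passed by a grey bar.

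Dpysl2 was the highest of the 10 genes. It encodes CRMP2, a protein that binds tubulin dimers and promotes microtubule assembly in growing axons, and lies on chromosome 14 at 66802864 to 66868688, minus strand. Its level ran from 399 RPKM in cell 7 through a median of 1406 to 2116 RPKM in cell 18, a 5.30-fold range. The mean was 1419 ± 504 RPKM (SD, n = 20 cells), with 12218 to 97511 reads behind each value. Cells 7, 5 and 14 were the lowest, at 399, 654 and 742 RPKM, and the next was cell 4 at 1028 RPKM. By median level Dpysl2 ranked 33 among protein-coding genes, and its coefficient of variation, 35.5%, was the 11th lowest of the 235 found in every cell. The median without the 6 cells with mesangial or endothelial markers was also 1406 RPKM. It was 1261 RPKM in the first 10 cell columns and 1684 RPKM in the last 10, and the values overlapped, at 399 to 2110 and 742 to 2116 RPKM.

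Dpysl3, which encodes the relative CRMP4 that bundles actin and also acts in neurite growth, lies on chromosome 18 at 43320984 to 43438286, minus strand. At 1920 bases, the shortest length that gave whole reads, it had 1 read each in cells 2, 10 and 20, at 0.0887 RPKM or less. The other 17 cells had none, which allows up to 0.150 to 0.372 RPKM over all 20 depths. This length did not match the mean of the annotated transcripts, the longest of which is 5479 bases. At a longer length the read counts would be higher and these limits lower. Of the 5 genes of the CRMP family, Dpysl2 was the only one found in every cell. Dpysl5 was found in 6 cells with a maximum of 1.86 RPKM. Dpysl4 was found in no cell, and Crmp1 had no read in any cell.

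Map1b encodes a microtubule-associated protein of growing axons and lies on chromosome 13 at 99421446 to 99516540, minus strand. It was found in 7 cells, at 130 RPKM in cell 1, 102 in cell 8, 92.0 in cell 15, 90.9 in cell 18, 79.8 in cell 17, 73.1 in cell 20 and 3.998 in cell 13. The other 13 cells held 0.467 RPKM or less, so that 6 cells lay within 73.1 to 130 RPKM and 1 cell lay between them and the rest. The 6 high cells had 4586 to 12326 Map1b reads each. These counts use a length of 11852 bases, the shortest that gave whole reads. It did not match the mean of the annotated transcripts, the longest of which is 11808 bases. Of the 7 cells, 5 were in the last 10 columns of the table and 2 in the first 10, and 6 were among the 14 cells without mesangial or endothelial markers.

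Among 20 microtubule-associated proteins including Map1b, 14 were found in some cells and 6 in none. Mapt, which encodes tau, was found in 19 cells, at a median level of 212 RPKM, and thus in more cells than Map1b. Clasp2, which tracks growing microtubule ends, was found in 19 cells at a median level of 12.6 RPKM, and the general microtubule binder Map4 in 13. Map2, the microtubule protein of dendrites, was found in no cell. Of 16 kinases and partners of CRMP proteins, 1 was found in every cell, 12 in some and 3 in none. Gsk3b, a kinase that phosphorylates CRMP2 and releases it from tubulin, was that gene, at a median level of 417 RPKM. Kif5b, the kinesin heavy chain that carries cargo along microtubules, was found in 19 cells at a median level of 427 RPKM, and the kinases Rock1 and Rock2 in 18 each, with medians of 84.8 and 50.4 RPKM. Of 14 growth cone proteins, 11 were found in some cells and 3, Gap43, Basp1 and Nav1, in none.

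Ordered by mean level, the 10 genes ran Dpysl2, Rab3b, Vamp2, Map1b, Rab3d, Rab3a, Stx1a, Snap25, Syn1 and Dpysl3. Dpysl2 exceeded Rab3b in 18 of 20 cells, all but cells 7 and 14, with a median difference of 0.62 in log2(RPKM + 1). Rab3b exceeded Vamp2 in 20 of 20 cells, by a median of 7.45 on the same scale. The neighbours below were not ordered in the same way from cell to cell. Vamp2 exceeded Map1b in 12 cells and was below it in 6, Map1b exceeded Rab3d in 12 and was below it in 7, and Rab3d exceeded Rab3a in 8 and was below it in 5. Rab3a exceeded Stx1a in 6 cells and was below it in 5, and Snap25 exceeded Stx1a in 8 cells and was below it in 4, against the order of their means. These levels are per length, and the length behind the Rab3b value is 1473 bases. With its longest annotated transcript, 3327 bases, the median of Rab3b is 376 RPKM.

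The levels of Rab3b and Dpysl2 showed little rank correlation over the cells. Their Spearman correlation was 0.08 over the 20 cells, and the Pearson correlation of log2(RPKM + 1) was -0.13. In cells 7 and 14 Dpysl2 was at 399 and 742 RPKM and Rab3b at 1116 and 1347 RPKM, while in cell 12 Dpysl2 was at 1759 RPKM and Rab3b at its lowest. Vamp2 and Dpysl2 had a Spearman correlation of 0.37, which was 0.67 in the first 10 cell columns and 0.14 in the last 10. That of Rab3b and Vamp2 was 0.15, with 0.37 in the first 10 columns and 0.17 in the last 10. The points of each correlation are cells of 1 mouse and share the library and its depth. The Spearman correlation with the read total was 0.21 for Rab3b, 0.42 for Vamp2 and 0.11 for Dpysl2.

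**Figure D5:**
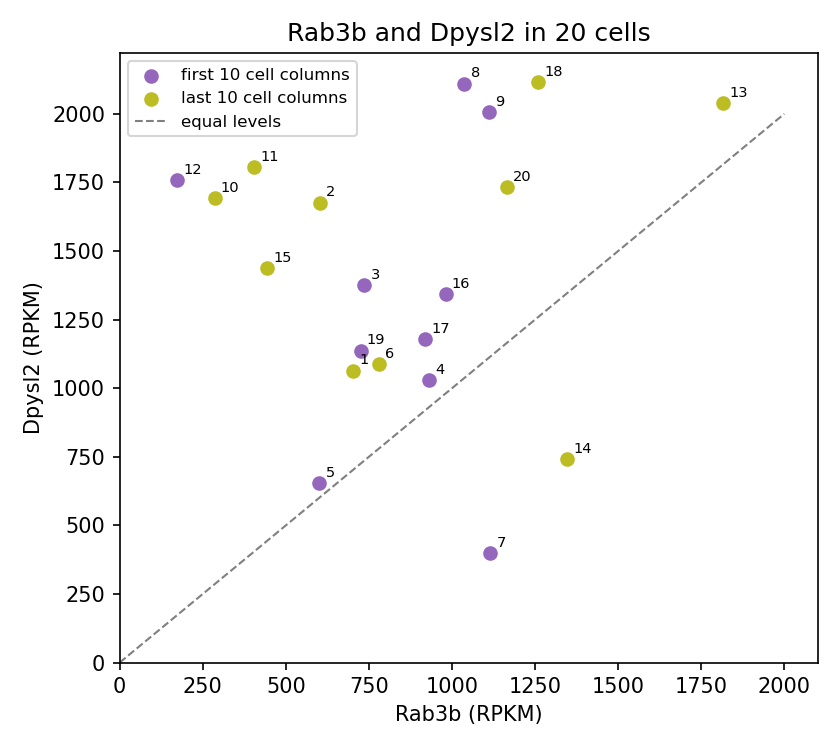
Dpysl2 (y axis) against Rab3b (x axis), both in RPKM, in the 20 cells, numbered and coloured by the first and last 10 cell columns of the table, with a dashed line of equal levels. Cells 7 and 14 lie below the line, and the other 18 lie above it.

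The genes most like each member were sought among 1059 or 1060 named protein-coding genes whose mean level reached 10 RPKM and that were found in at least 15 cells. For Rab3b the 5 highest Spearman correlations over the 20 cells were with Zc3hav1 at 0.66, Atp6v0e at 0.65, Atp6v1a at 0.64, Tmod3 at 0.58 and Rpl24 at 0.56. For Vamp2 they were with Arhgap5 at 0.71, Slc9a3r2 at 0.69, Mprip at 0.69, Snd1 at 0.65 and Actg1 at 0.60. For Dpysl2 they were with Rock2 at 0.68, Rpl27a at 0.59, Cox4i1 at 0.59, Cttnbp2 at 0.58 and Ndufb7 at 0.58. The 99th percentile over all genes compared was 0.52 for Rab3b, 0.55 for Vamp2 and 0.50 for Dpysl2. The highest of so many correlations over so few cells are a ranking and carry no test. Map1b, Rab3d, Rab3a, Stx1a and Snap25 were found in fewer than 10 cells each and were not searched.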

How the data were processed

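RNA of 20 libraries, labelled as single podocytes of 1 mouse, was measured. The authors deposited 1 table of RPKM values for 39179 genes (its title line names 39173); GRCm38 is the build, and TopHat2 2.0.12 and HTSeq 0.6.1 the tools, that the submitters' processing notes name. Settings, strand and the treatment of reads with several alignments: not given in the sources used here.

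The members and gene lists were chosen with earlier results of these data known. Whole reads and read totals were recovered from the steps of the RPKM values: each of the 13170 genes that had reads in 2 or more cells gave whole reads at a whole-base length, within 1e-05 read, and the method was tested on simulated data. A gene at 1 RPKM or more was called found. With no groups, neither a count test nor any other test was made. No doublet caller was run. Limits for 0 are the level of 3 reads. GENCODE M21 gave symbols and coordinates, counted from 1, and matched 37607 IDs. RefSeq promoters (GRCm38.p6) were matched by symbol for 6 members, and no protein sequence was used here. Named genes are the 10 members, genes of the lists (at least those found in every cell, the highest median of each list, and unfound members of the Rab3, synapsin, SNARE and CRMP families) and the 5 highest correlations of each member found in 10 or more cells. The lists covered vesicle, SNARE, microtubule and growth cone genes and markers of 8 cell types; a cell held at most 2 of 7 parietal epithelial, 1 of 10 immune and 0 of 8 proximal tubule markers. Slc18a3 could not be matched. Some listed genes are counted but their values are left out of the text. Python 3.11.15, pandas 2.3.3, numpy 2.4.6 and scipy 1.17.1 were used.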

Additional observations from a re-analysis of the deposited data

How the results depend on the processing

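The count of 2 genes found in every cell, Rab3b and Dpysl2, was the same under each alternative run: detection above 0, at 10 RPKM and at 10 reads, without the 6 cells with mesangial or endothelial markers, without the cell with the fewest reads, with values rescaled to 1000000 per cell, with the longest transcript as length, and in the first or last 10 cell columns alone (the last 2 were chosen after seeing the data). The count found in no cell, 2, became 0 with detection above 0 RPKM, 3 at 10 RPKM and 4 in the first 10 cell columns. The median number of members per cell, 3.5, became 5 with detection above 0 RPKM and ran from 3 to 4.5 under the other alternatives. Rescaling raised the median of Rab3b to 1442 and of Dpysl2 to 2355, as its construction does to all genes, and the longest transcript put Rab3b at 376 RPKM. As Pearson correlations of log2 values, Rab3b with Vamp2 became -0.0107 with a pseudocount of 1, and Rab3b with Dpysl2 became -0.129 with pseudocounts of 1 and of 0.1; the cause was not tested. The medians of genes found in only some cells were not stable. Vamp2, at 4.05 RPKM, became 13.3 RPKM without the 6 cells, 27.6 in the first and 1.19 in the last 10 columns, 1.98 with the longest transcript and 46.9 as a mean over cells. Map1b, at 0.220 RPKM, became 0.0297 in the first and 2.23 in the last 10 columns and 28.6 as a mean. The SD between cells, 109 RPKM for Vamp2 and 45.5 RPKM for Map1b, is large where few cells hold the reads. It does not measure the uncertainty of a median. The values of Syn1 and Dpysl3 rest on at most 3 recovered reads per cell. The level of 3 reads was at most 0.221 RPKM for Syn1 and 0.372 RPKM for Dpysl3, below the 1 RPKM of a gene called found. No paired analysis was possible because all cells form 1 group.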
